A study of Mus musculus with 17 samples.

Results

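Circulating corticosterone acts on the cortex through 2 nuclear receptors, and 9 genes of that machinery were followed after chronic unpredictable stress (CUS) in mice. The 9 genes were taken by symbol, with earlier results of these data known, from 36293 genes in the bulk tables and 37608 in the single-nucleus tables. They are the receptors Nr3c1 and Nr3c2, the immunophilins Fkbp5 and Fkbp4, the Hsp90 genes Hsp90aa1 and Hsp90ab1, the coactivators Ncoa1 and Ncoa2, and the corticosterone-regenerating enzyme Hsd11b1. All 9 were found in both kinds of table.

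Nr3c1 encodes the glucocorticoid receptor (GR) and Nr3c2 the mineralocorticoid receptor (MR), which binds corticosterone more tightly and is known for high levels in limbic neurons. Without hormone both receptors sit in the cytoplasm in a complex built on Hsp90, to which Hsp70 and its cochaperones hand them over. FKBP51, the product of Fkbp5, lowers the affinity of GR for hormone and is itself induced by GR, whereas FKBP52, the product of Fkbp4, favors transport of the receptor to the nucleus. There the receptors bind DNA at hormone response elements and recruit coactivators such as those encoded by Ncoa1 and Ncoa2.

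All mice were C57BL/6 males, of the C57Bl/6J substrain per the study's methods. CUS mice received 3 stressors per day for 12 days from 9 to 10 weeks of age, and control mice were kept in a separate room and handled daily, so that housing room and stress cannot be told apart. Bulk nuclear RNA-seq covered the medial prefrontal cortex (mPFC) of 4 control and 5 CUS mice at postnatal day 90, which per the study's methods were killed a day after behavioral testing had ended. sNucDrop-seq, a droplet method that counts RNA molecules of single nuclei by unique molecular identifiers (UMIs), covered the neocortex of 4 other control and 4 other CUS mice at postnatal day 80, taken 24 h after the final stressor. The bulk tables held 26188825 to 30525015 reads per mouse, and 26937 nuclei were kept from the sNucDrop-seq tables, with 1936 to 4316 nuclei and 4831077 to 12811880 UMIs per mouse. Of 26916 distinct barcodes, 20 occurred in more than 1 mouse. Levels are given as CPM, a gene's counts scaled to a fixed library total after trimmed-mean (TMM) correction, unless stated otherwise. Both assays sample nuclear RNA, so levels are those of nuclear transcripts.

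Marker genes of several cell types moved with the groups in these libraries. In bulk, the summed level of 5 markers of oligodendrocyte precursor cells (OPCs) was 265 to 314 CPM in control and 225 to 236 CPM in CUS mice, with 5 of 5 lower in the CUS mean and no overlap between the groups. The sum of 7 oligodendrocyte markers was 253 to 615 CPM in control and 273 to 344 CPM in CUS mice, and 7 of 7 had lower CUS means. Of 8 astrocyte markers 7 had lower CUS means, and their sum was 1641 to 1994 CPM in control and 1527 to 1768 CPM in CUS mice. That of 7 striatal markers reached 192 CPM in 1 control mouse and lay at 39.6 to 58.5 CPM in CUS mice. Sums of 6 neuronal markers were 3828 to 4419 and 3941 to 4222 CPM. In the nuclei, the striatal sum was 482 to 536 CPM in control and 253 to 480 CPM in CUS mice, while the sum of 5 choroid plexus markers was 7.63 to 16.3 CPM in control and 18.1 to 238 CPM in CUS mice, highest in CUS replicate 2. Of these 5 choroid plexus markers 1 had a lower CUS mean. Endothelial markers in the nuclei had higher CUS means for 5 of 5, with sums of 4.84 to 24.3 CPM in control and 7.06 to 123 CPM in CUS mice, and astrocyte markers for 7 of 8, with sums of 930 to 1264 and 983 to 1493 CPM. Oligodendrocyte markers in the nuclei had lower CUS means for 7 of 7, with overlapping sums of 719 to 1052 and 582 to 1208 CPM. OPC markers in the nuclei had lower CUS means for only 1 of 5, with overlapping sums of 177 to 260 and 189 to 267 CPM. No marker of these lists was at 0 over all mice. The part of these shifts in the results below was not tested, and in bulk tissue fewer cells of a type cannot be told apart from less RNA per cell.

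The first question was whether the receptors themselves differed after CUS. In bulk mPFC, Nr3c2 fell by 0.23 on the log2 scale after CUS, a mean 14.6% below control, and it was the only 1 of the 9 genes past a false discovery rate (FDR) of 0.05. Nr3c1 had the same log2 change, -0.23, with a larger error, and did not pass. Over all genes tested, 606 of 18394 (3.29%) passed, 392 of them (2.13%) lower in CUS, and the median log2 change was 0.006. Of the 9 genes, 8 had a negative log2 change, with a median of -0.12. An unadjusted p under 0.05 was reached by both receptors, 2 of 9, beside 21.5% of all genes tested.

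Nr3c2 is annotated as a protein-coding gene at chr8:76899442-77245012 on the plus strand (mm10). Its level in the 4 control mice was 241, 262, 251 and 263 CPM, and in the 5 CUS mice 220, 218, 231, 205 and 211 CPM. Every CUS mouse was below every control mouse. Nr3c2 was the only 1 of the 9 genes whose groups did not overlap, beside 8.76% of all genes tested, 4.7% in the lower and 4.06% in the higher direction. The means were 254 ± 10.1 CPM (SD, n = 4) and 217 ± 9.77 CPM (SD, n = 5), and the log2 change had a standard error of 0.05 and an adjusted p of 0.0399 by the quasi-likelihood test of edgeR, adjusted by Benjamini-Hochberg over all genes tested. The call was close to the threshold. By the same test, the adjusted p was 0.130 without control replicate 2, 0.0730 without control replicate 4, 0.0714 without CUS replicate 1, 0.0560 without CUS replicate 2, 0.116 without CUS replicate 4 and 0.107 without CUS replicate 5, while the log2 change stayed between -0.26 and -0.20 over all alternatives.

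Nr3c1 is a protein-coding gene on chromosome 18. It stood at 176, 168, 150 and 170 CPM in control mice and at 143, 149, 154, 130 and 129 CPM in CUS mice. Here the groups overlapped by 1 control mouse, replicate 3, which lay below CUS replicate 3. The means were 166 ± 11.6 CPM (SD, n = 4) and 141 ± 11.1 CPM (SD, n = 5), the standard error of the log2 change was 0.07, and the adjusted p was 0.0781 by edgeR's quasi-likelihood test. Without control replicate 3 the log2 change was -0.29 with an adjusted p of 0.0178 by the same test, and edgeR's likelihood ratio test, the authors' choice, gave an adjusted p of 0.0463. The ratio of Nr3c2 to Nr3c1 reads was 1.54 ± 0.128 (SD, n = 4) in control and 1.54 ± 0.0667 (SD, n = 5) in CUS mice, a difference smaller than its spread.

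**Figure D1:**
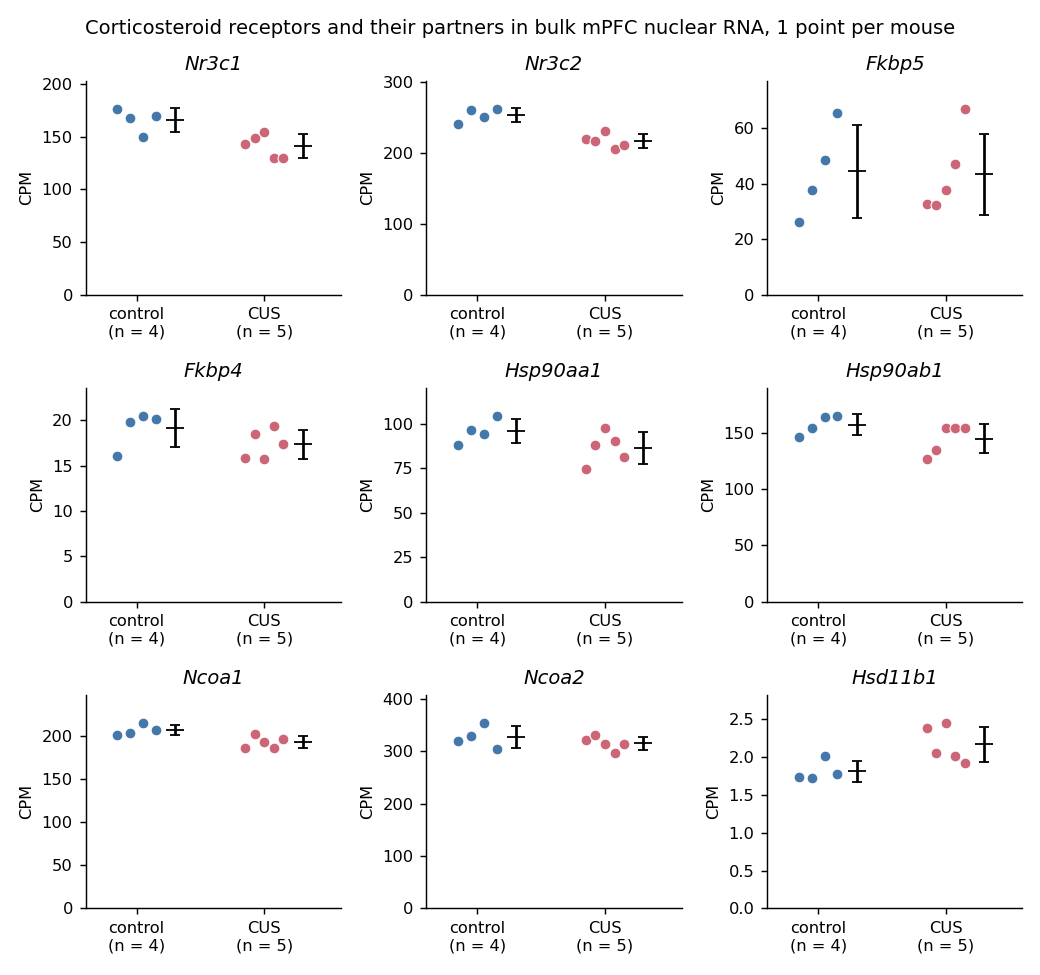
Levels of the 9 genes in bulk mPFC nuclear RNA, in CPM on an axis that starts at 0, with 1 point per mouse (blue, 4 control mice, red, 5 CUS mice) and the mean with its SD in black. For Nr3c2 the 5 CUS mice sit between 205 and 231 CPM, all below the control mice, while Fkbp5 ranges from 26.3 to 65.7 CPM within the control mice alone.

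The neocortex nuclei gave smaller counts for the same receptors. The study's methods describe a strong effect of 2 sequencing batches on these nuclei and fitted the batch as a term. The labels do not give each mouse's batch, so the fits here leave it in the spread between mice, and its part in the number of calls was not tested. Summed over all nuclei of a mouse, 0 of the 6 genes that could be tested passed the FDR of 0.2 used by the study for nuclei, with edgeR's quasi-likelihood test, beside 1 of 5048 genes (0.0198%) overall. An unadjusted p under 0.05 was reached by 1 of the 6, Nr3c1, and by 7.90% of all genes tested. Fkbp5, Fkbp4 and Hsd11b1 were below the abundance filter of that test. Nr3c1 stood at 192, 193, 173 and 185 CPM in control mice and at 148, 162, 165 and 173 CPM in CUS mice. Only the highest CUS mouse reached the lowest control mouse. The groups overlapped for all 6 genes, and did not overlap for 4.83% of all genes tested, 2.75% lower and 2.08% higher. The log2 change of Nr3c1 was -0.19 with a standard error of 0.08 and an adjusted p of 0.591 by edgeR.

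Nr3c2 varied more between the mice of a group, at 134, 198, 136 and 165 CPM in control and 95.3, 165, 135 and 127 CPM in CUS nuclei. The groups overlapped widely, and CUS replicate 2 was as high as control replicate 4. The log2 change was -0.28 with a standard error of 0.16 and an adjusted p of 0.613 by edgeR. Without CUS replicate 2 the log2 change was -0.41 and the adjusted p 0.173 by edgeR, past the threshold. Leaving out that mouse also raised the calls over all genes from 1 to 787 (15.2%), and what sets it apart was not tested.

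Layer 2/3 excitatory nuclei, the class at the center of the study, were taken from the Ex_L2/3_Enpp2-like cluster of 3768 nuclei, named from its markers. There Nr3c1 stood at 215, 221, 208 and 221 CPM in control mice and at 170, 176, 185 and 199 CPM in CUS mice. All 4 CUS mice were below all 4 control mice, which held for no other of the 6 genes, and groups did not overlap for 5.68% of all genes tested in that class, 2.78% lower and 2.91% higher. The log2 change was -0.24 with a standard error of 0.11, an unadjusted p of 0.0422 and an adjusted p of 0.405 by edgeR's quasi-likelihood test, so Nr3c1 did not pass. Of the 6 genes tested there 0 passed, beside 1.09% of all genes tested (0.555% lower and 0.537% higher), and 2 of the 6 had an unadjusted p under 0.05, beside 11.8% of all genes.

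Nr3c2 in the same nuclei was 97.4, 134, 101 and 116 CPM in control and 86.1, 134, 102 and 115 CPM in CUS mice. The groups covered nearly the same range, with a log2 change of -0.05 and a standard error of 0.15. Set against all other nuclei of the same mouse, the log2 level of Nr3c2 in layer 2/3 nuclei was -0.56 ± 0.07 (SD, n = 4) in control and -0.29 ± 0.14 (SD, n = 4) in CUS mice. This difference of 0.27 had an exact two-sided permutation p of 0.0286, the smallest that 4 mice against 4 can give, and was the only 1 of the 9 genes with a p under 0.05, beside 4.02% of the 5403 genes tested in that class, 2.15% in the higher direction. Adjusted by Benjamini-Hochberg over those genes, the smallest exact permutation p of any gene was 0.711.

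**Figure D2:**
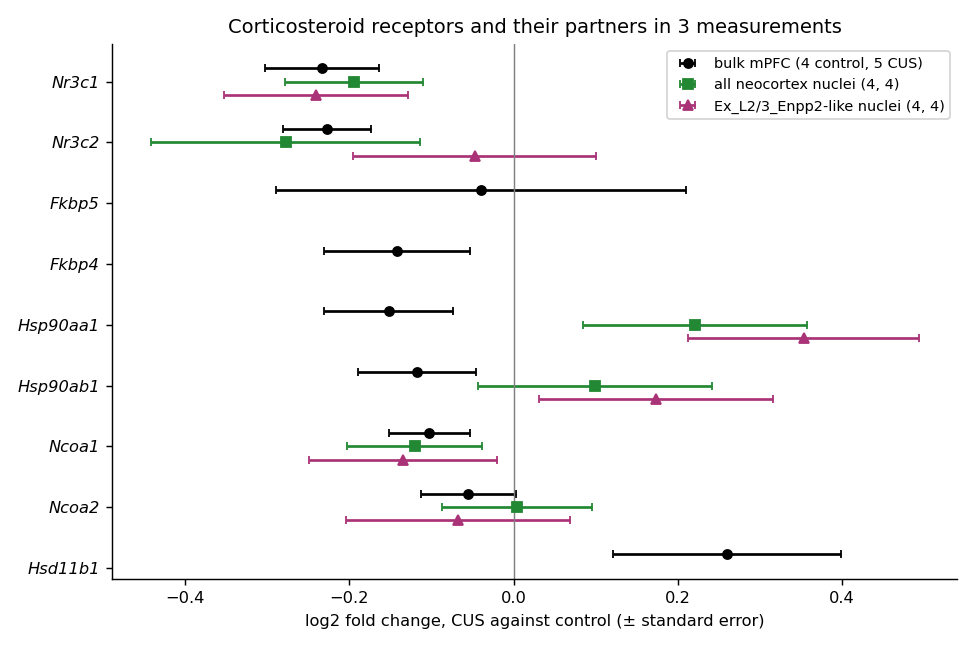
Log2 fold change of CUS against control with its standard error for each gene that could be tested, in bulk mPFC (black circles, 4 control and 5 CUS mice), all neocortex nuclei (green squares, 4 and 4 mice) and Ex_L2/3_Enpp2-like nuclei (purple triangles, the same 4 and 4 mice). Nr3c1 lies at -0.23, -0.19 and -0.24 in the 3 measurements, whereas Hsp90aa1 lies at -0.15 in bulk and at 0.22 and 0.35 in the nuclei.

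Across classes of nuclei the 9 genes were followed in 26 classes of over 200 nuclei each, 19 named from their markers and 7 called by cluster number and leading gene. Of 171 pairs of gene and class that could be tested, 0 passed an FDR of 0.2 within the class by edgeR's quasi-likelihood test, beside 0.0964% of all pairs. An unadjusted p under 0.05 was found in 14 of 171, beside 5.82% of all pairs, and 11 of these 14 were negative. The groups did not overlap in the lower direction in 7 pairs, beside 1.69% of all pairs, and in the higher direction in 0, beside 1.65%. All classes come from the same 8 mice and are not independent of each other.

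Nr3c1 had a negative log2 change in 22 of 26 classes, with a median of -0.23. Its groups did not overlap in 4 of them, the Ex_L2/3_Enpp2-like and Ex_Ndst4-like nuclei and clusters 3 (Galnt14) and 23 (Fyb2). In Ex_Ndst4-like nuclei the means were 150 ± 19.4 CPM in control and 108 ± 8.20 CPM in CUS mice (SD, n = 4 each), a log2 change of -0.48 with a standard error of 0.15 and an adjusted p of 0.501 by edgeR. The changes in clusters 3 and 23 were -0.30 and -0.73, that in cluster 23 on 133 UMIs in all.

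Nr3c2 had a negative log2 change in 20 of 26 classes, with a median of -0.19. Its 5 classes with an unadjusted p under 0.05 were Claustrum-like, cluster 23 (Fyb2), Inh_Vip-like, Striatal_Drd2-like and cluster 8 (Cpne7), with log2 changes of -0.82, -0.66, -0.61, -0.60 and -0.44, and the groups overlapped in all 5. In cluster 8, which held 1190 of its UMIs, the means were 433 ± 88.8 CPM in control and 324 ± 99.8 CPM in CUS mice (SD, n = 4 each), with an adjusted p of 0.695 by edgeR. The lowest adjusted p of Nr3c2 in any class was 0.656 and that of Nr3c1 0.405.

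**Figure D3:**
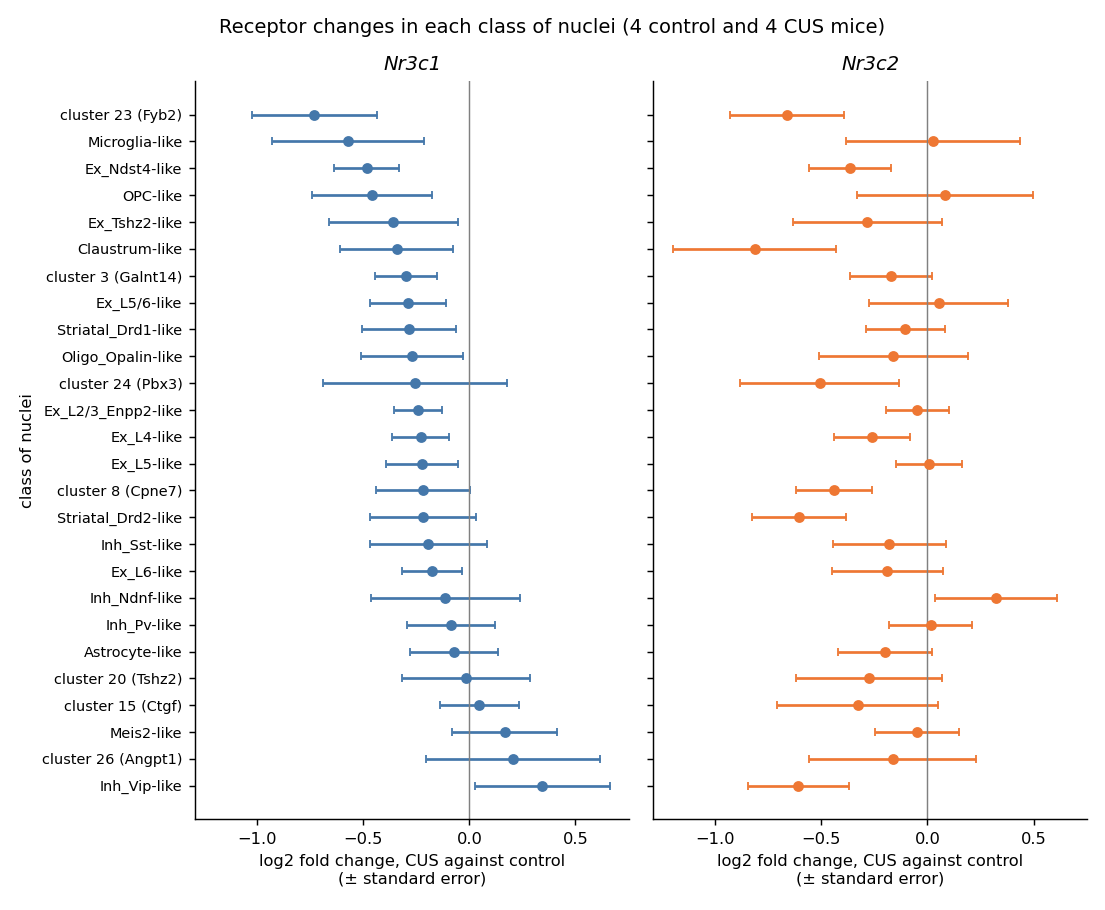
Log2 fold change of Nr3c1 and Nr3c2, CUS against control, with its standard error in each of the 26 classes of nuclei (4 control and 4 CUS mice), ordered by Nr3c1. Nr3c1 is negative in 22 classes and Nr3c2 in 20, and the standard errors are wide in the small classes.

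The receptors also differed in where they were highest, given here as a description because the clusters were built from the same nuclei. Class levels are CPM of the UMIs of the class without TMM scaling, as mean and SD over 8 mice. They are shares, and the UMIs of a nucleus differed between classes. Relative to the median of its mouse, the median nucleus had 0.548 times the UMIs in OPC-like and 0.591 in Astrocyte-like nuclei. The values were 0.767 in Inh_Vip-like, 1.23 in Ex_L2/3_Enpp2-like nuclei and 1.33 in cluster 8 (Cpne7). The order by share need not be the order per nucleus, which was not compared. Nr3c1 was highest in OPC-like (285 ± 73.6), Oligo_Opalin-like (269 ± 53.3) and Astrocyte-like nuclei (251 ± 42.5). The glial classes were followed by clusters 3 (Galnt14) and 15 (Ctgf) at 230 ± 36 and 229 ± 34.2. Excitatory classes came next, with Ex_L6-like at 223 ± 30, Ex_L4-like at 205 ± 28.5, Ex_L2/3_Enpp2-like at 199.6 ± 21.1, Ex_L5/6-like at 173 ± 27.4 and Ex_L5-like at 151 ± 22.1. Ex_Tshz2-like (133 ± 39.9) and Ex_Ndst4-like nuclei (129 ± 25.7) were lower, near the inhibitory classes. Microglia-like nuclei stood at 198 ± 73.1.

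Inhibitory neurons were at the low end for Nr3c1, with Inh_Vip-like at 122 ± 35.3, Inh_Sst-like at 113 ± 40.2, Inh_Ndnf-like at 110 ± 40.2 and Inh_Pv-like at 102 ± 13.4. The striatal classes (Striatal_Drd1-like 121 ± 28.7, Striatal_Drd2-like 123 ± 15.6) and cluster 8 (Cpne7, 121 ± 38.3) were close to them, and cluster 23 (Fyb2) was lowest at 100.2 ± 35.7. Of the 25 neighbouring pairs in this order, 0 were apart by more than the larger SD of the pair. From end to end the range was 2.84-fold.

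Nr3c2 spread over a wider range, 10.7-fold, and in another order. It was highest in Inh_Vip-like nuclei (447 ± 159), an interneuron class marked by vasoactive intestinal peptide, and in cluster 8 (377 ± 100), whose leading genes include Cpne7, Nnat and Crym. Below a step larger than the SD, the only 1 of 25, came Ex_L5-like (256 ± 25.3), Astrocyte-like (255 ± 73.2), Striatal_Drd2-like (220 ± 63.2), Striatal_Drd1-like (194 ± 27.8), Meis2-like (192 ± 19.4) and Inh_Ndnf-like nuclei (183 ± 62.4). Middle levels were found in Ex_Ndst4-like (165 ± 44.6), Microglia-like (151 ± 75.2), Inh_Pv-like (130 ± 19.9), OPC-like (124 ± 53.2) and Ex_L2/3_Enpp2-like nuclei (110 ± 15.5). The low end held Ex_L4-like (68.4 ± 12.3), Ex_L6-like (59.9 ± 21.3), Claustrum-like (56.9 ± 30.7) and Ex_L5/6-like nuclei (42.3 ± 14.1) and cluster 15 (41.8 ± 19.0).

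The ratio of Nr3c2 to Nr3c1 UMIs, read only between classes because it also depends on transcript length and capture, ran from 3.81 ± 1.63 in Inh_Vip-like nuclei to 0.184 ± 0.0859 in cluster 15 (SD over 8 mice). It was 3.51 ± 1.79 in cluster 8, 1.73 ± 0.350 in Ex_L5-like, 0.558 ± 0.0950 in Ex_L2/3_Enpp2-like, 0.338 ± 0.0705 in Ex_L4-like, 0.271 ± 0.0897 in Ex_L6-like and 0.251 ± 0.0947 in Ex_L5/6-like nuclei. The lowest mouse of the Ex_L5-like class, at 1.38, was above the highest of the Ex_L2/3_Enpp2-like class, at 0.759, and the highest mice of the Ex_L4-like, Ex_L6-like and Ex_L5/6-like classes were lower still, at 0.443, 0.382 and 0.394. Over all nuclei the ratio was 0.850 ± 0.140 in control and 0.804 ± 0.163 in CUS mice (SD, n = 4 each).

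**Figure D4:**
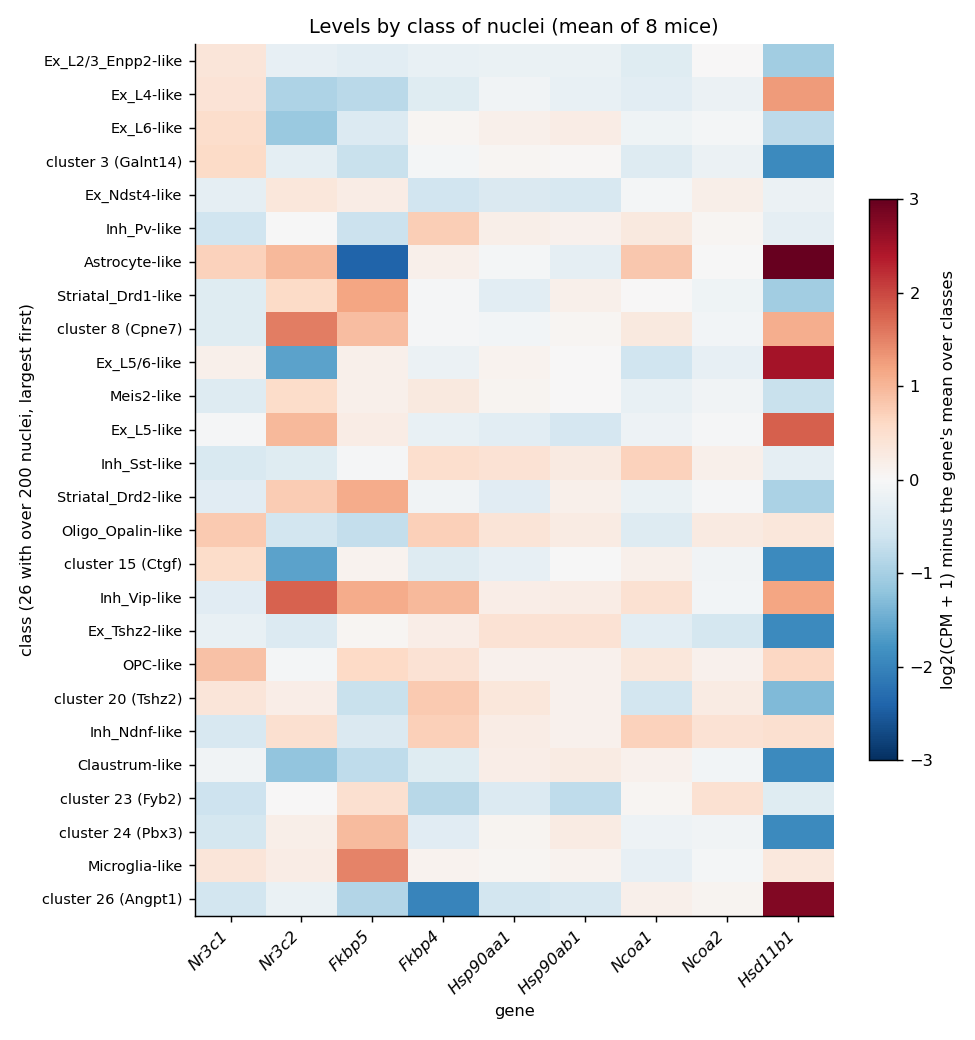
Levels of the 9 genes (columns) in the 26 classes of nuclei (rows, largest class first), as log2(CPM + 1) of the mean over 8 mice minus the gene's mean over classes, red above and blue below. Nr3c2 is reddest in Inh_Vip-like nuclei and cluster 8 (Cpne7) and bluest in Ex_L5/6-like nuclei and cluster 15 (Ctgf), while Hsd11b1 stands out in Astrocyte-like nuclei.

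Fkbp5 is often read as a gauge of GR activity because GR induces it. It did not pass in bulk, and was below the abundance filter over all nuclei and in layer 2/3 nuclei. Of the 6 classes in which it could be tested it passed in 0. In bulk mPFC it stood at 26.3, 37.7, 48.6 and 65.7 CPM in control mice and at 32.8, 32.4, 37.7, 47.0 and 67.0 CPM in CUS mice. The mice of each group were spread over the same range, with a 2.50-fold span within the control mice. Coefficients of variation were 37.6% and 33.3% in control and CUS mice, against 3.98% and 4.50% for Nr3c2. In both groups Fkbp5 rose with the replicate number, apart from CUS replicates 1 and 2, and the cause was not tested. The log2 change was -0.04 with a standard error of 0.25 and an adjusted p of 0.949 by edgeR, so that a change of the size seen for the receptors was not detectable at this spread.

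In the nuclei Fkbp5 was sparse, with 1799 UMIs in all, at 21.1 to 28.6 CPM in control and 25.2 to 33.2 CPM in CUS mice. Without the abundance filter its log2 change over all nuclei was 0.19 with a standard error of 0.14 and an adjusted p of 0.756 by edgeR. In layer 2/3 nuclei it stood at 9.74, 14.6, 21.2 and 11.3 CPM in control and 31.2, 12.7, 31.3 and 21.0 CPM in CUS mice, on 219 UMIs. The groups overlapped there, and the unfiltered log2 change was 0.63 with a standard error of 0.25, an unadjusted p of 0.0108 and an adjusted p of 0.604. By class it was highest in Microglia-like (71.0 ± 34.4), Striatal_Drd1-like (56.7 ± 12.1), Striatal_Drd2-like (54.2 ± 27.5) and Inh_Vip-like nuclei (54.2 ± 26.8) and lowest in Astrocyte-like nuclei (3.85 ± 4.79, on 7 UMIs). Outside the 26 classes, 143 nuclei of cluster 28, led by Prdm6, Bnc2 and Slc6a20a and picked after its values were seen, had 305 ± 185 CPM for Fkbp5 and 923 ± 620 for Nr3c2, above every larger class for both genes.

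Fkbp4, the other immunophilin, stood at 16.0, 19.8, 20.5 and 20.1 CPM in control and 15.8, 18.4, 15.7, 19.4 and 17.3 CPM in CUS bulk mPFC. The groups overlapped through the single low control mouse, and the log2 change was -0.14 with a standard error of 0.09 and an adjusted p of 0.382 by edgeR. In the nuclei the sign was the other way, at 25.8 to 36.5 CPM in control and 29.7 to 39.5 CPM in CUS mice, with an unfiltered log2 change of 0.12, a standard error of 0.13 and an adjusted p of 0.788 by edgeR. In layer 2/3 nuclei the unfiltered change was likewise 0.12, with a standard error of 0.21. Of the 8 classes in which Fkbp4 could be tested 5 had a positive log2 change, and the 1 with an unadjusted p under 0.05 was cluster 8 (0.90, standard error 0.37, adjusted p 0.695 by edgeR, on 97 UMIs). Among classes its highest mean was in Inh_Vip-like nuclei (68.6 ± 28.7), followed by cluster 20 (59.6 ± 17.5) and Inh_Pv-like nuclei (58.1 ± 10.2), differences smaller than the largest of their SDs.

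Hsp90aa1 and Hsp90ab1 encode the stress-inducible and the constitutive cytosolic Hsp90, on which both receptors depend for hormone binding. In bulk, Hsp90aa1 stood at 88.3, 96.7, 94.6 and 105 CPM in control and 74.4, 88.3, 98.0, 90.4 and 81.2 CPM in CUS mice, and Hsp90ab1 at 146 to 165 and 127 to 155 CPM. Both overlapped between groups, with log2 changes of -0.15 (standard error 0.08) and -0.12 (standard error 0.07) and adjusted p of 0.283 and 0.368 by edgeR.

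The nuclei gave the other sign for both Hsp90 genes. Over all nuclei Hsp90aa1 was 212, 213, 211 and 177 CPM in control and 305, 185, 218 and 240 CPM in CUS mice, with a log2 change of 0.22, a standard error of 0.14 and an adjusted p of 0.614 by edgeR. CUS replicate 1 was far above the rest and CUS replicate 2 within the control range. In layer 2/3 nuclei it was 175, 166, 203 and 147 CPM in control and 272, 176, 190 and 246 CPM in CUS mice. There 2 CUS mice exceeded all controls, and the log2 change was 0.35 with a standard error of 0.14 and an adjusted p of 0.349 by edgeR.

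Without CUS replicate 2, Hsp90aa1 passed the FDR of 0.2 both over all nuclei (log2 change 0.32, adjusted p 0.171) and in layer 2/3 nuclei (0.43, adjusted p 0.0863), by edgeR. At that setting 15.2% of all genes passed over all nuclei, and 731 (13.3%) did in layer 2/3 nuclei, against 59 with all mice. Hsp90aa1 had a positive log2 change in 21 of 26 classes and Hsp90ab1 in 22 of 26, with medians of 0.21 and 0.09. Over all nuclei the log2 change of Hsp90ab1 was 0.10 with a standard error of 0.14, and it turned to -0.05 without CUS replicate 1, the mouse highest for both genes at 305 and 1026 CPM. The bulk and nucleus values come from different mice, ages, days after stress and dissections, and the difference in sign between them was not tested.

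Among the 26 classes, Hsp90aa1 was highest in Ex_Tshz2-like (305 ± 90.3) and Inh_Sst-like nuclei (305 ± 62.1) and lowest in cluster 26 (154 ± 83.9), a 1.98-fold range. Hsp90ab1 was likewise highest in Ex_Tshz2-like nuclei (1061 ± 284) and lowest in cluster 23 (462 ± 139). For both genes 0 of 25 neighbouring classes differed by more than the larger SD. Cluster 27, 200 nuclei led by Nefm and Tubb3 with Hsp90aa1 itself as a leading gene, had 1145 ± 475 and 2996 ± 1179 CPM of the Hsp90 genes, and the median UMI count of its nuclei was 0.519 times that of the nuclei of the same mice. Its leading genes also included Hspa8 and the mitochondrial transcripts mt-Nd1 and mt-Cytb. Of its nuclei 64 came from CUS replicate 1, 45 from control replicate 2 and 4 from CUS replicate 2. The part of this cluster in the sums over all nuclei was not tested, and it was left unnamed.

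Few genes of the wider chaperone machinery passed in bulk. Of 21 other genes of a chaperone list, all tested, 1 passed the FDR of 0.05 lower and 0 higher, against 2.13% of all genes lower. Most of the 21 are chaperones or cochaperones of the receptors. The list also holds Hsp90b1 and Trap1, Hsp90 genes of other cell compartments, and Hsf1, a heat shock factor. Their bulk log2 changes were 0.12, -0.05 and 0.04. A negative log2 change was found in 13 of 21, with a median of -0.10 against 0.006 over all genes, and the 7 with an unadjusted p under 0.05 (all genes, 21.5%) were all negative.

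Hsph1, which encodes a large Hsp70-related protein that reloads Hsp70 with nucleotide, fell by 0.42 on the log2 scale, with a standard error of 0.09 and an adjusted p of 0.0258 by edgeR. It stood at 78.6, 105, 86.2 and 94.5 CPM in control and 60.3, 68.8, 73.4, 74.5 and 64.7 CPM in CUS mice. All 5 CUS mice lay below all 4 control mice. Hsph1 no longer passed when control replicate 2 or 4 or CUS replicate 1, 4 or 5 was left out. Dnaja1, an Hsp40 that delivers clients to Hsp70, had a log2 change of -0.32 with an adjusted p of 0.0526 by the same test. The change of the inducible Hsp70 gene Hspa1b was -0.39 with an adjusted p of 0.412, on 17 to 45 reads per mouse. Its near-identical copy Hspa1a makes that value uncertain.

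The other chaperones with an unadjusted p under 0.05, named after their values were seen, did not pass. Ptges3, the p23 cochaperone that stabilizes the hormone-binding state, had a log2 change of -0.31 (adjusted p 0.0510 by edgeR), Stip1, the adaptor between Hsp70 and Hsp90, -0.26 (0.0682), Hspa4, of the same family as Hsph1, -0.19 (0.0852), St13, an Hsp70 stabilizer, -0.21 (0.107), and Dnajb1, an Hsp40, -0.19 (0.226). The groups did not overlap for 4 of the 21, Hsph1, Ptges3, Dnaja1 and Hspa4, all lower in CUS mice, beside 4.7% of all genes lower and 4.06% higher.

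In all nuclei 15 of the 21 could be tested and 0 passed the FDR of 0.2 by edgeR (all genes, 0.0198%), while 11 of 15 had a positive log2 change with a median of 0.09. The 1 with an unadjusted p under 0.05 was Hspa8, the constitutive Hsp70, with a log2 change of 0.60, a standard error of 0.25 and an adjusted p of 0.591. In bulk Hspa8 had a log2 change of 0.014. Hsph1 itself was at 94.0 to 139 CPM in control and 91.1 to 151 CPM in CUS nuclei, overlapping, with a log2 change of 0.09 and a standard error of 0.16.

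**Figure D5:**
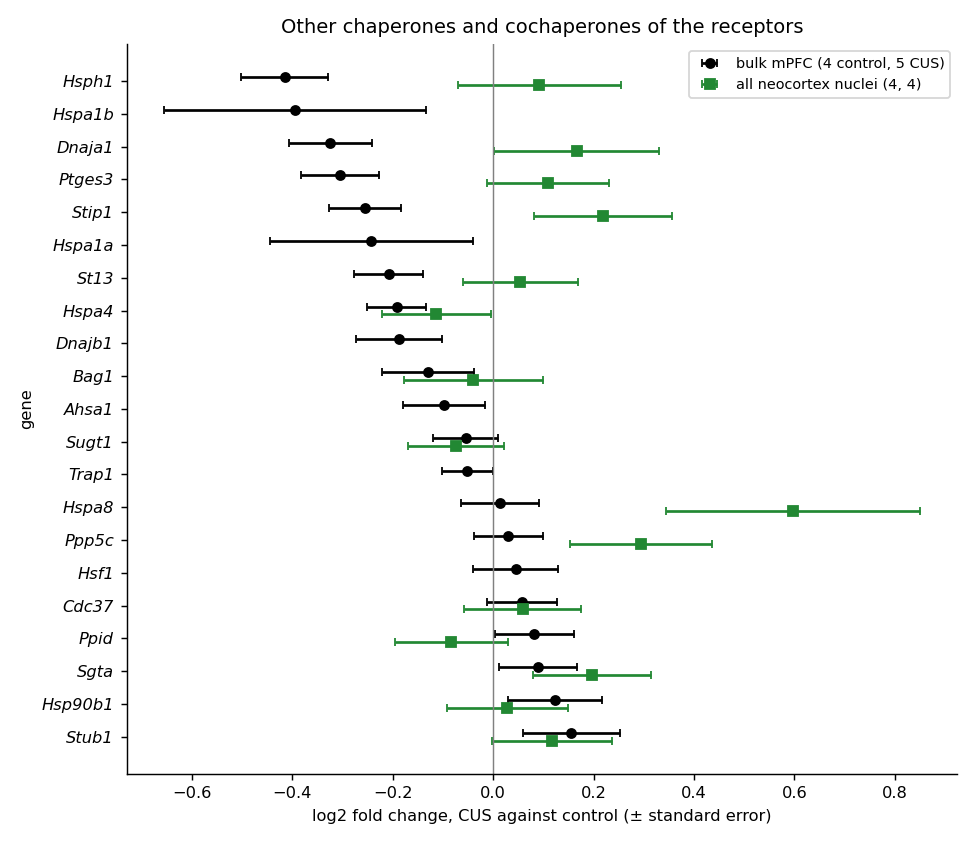
Log2 fold change, CUS against control, with its standard error for the genes of the chaperone list, Hsp90b1, Trap1 and Hsf1 included, in bulk mPFC (black circles, 21 genes, 4 control and 5 CUS mice) and all neocortex nuclei (green squares, 15 genes, 4 and 4 mice), ordered by the bulk value. Hsph1 lies at -0.42 in bulk and 0.09 in the nuclei, and of the 13 genes left of 0 in bulk 5 lie right of 0 in the nuclei, 3 lie left of it and 5 were not tested there.

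Hsp90 and Hsp70 genes are classically switched on by heat shock factor, which binds inverted repeats of GAA. Promoter windows of RefSeq (GRCm38.p6) ran from 250 bases before to 50 after the annotated start. They were searched for 5 of the 9 genes and 17 of the 21 genes of the chaperone list. The 5 were Nr3c2, Fkbp5, Fkbp4, Ncoa1 and Hsd11b1. No window of Hsp90aa1, Hsp90ab1, Nr3c1 or Ncoa2 was searched, so the counts below say nothing about these genes. The pair GAANNTTC, which reads the same on both strands, was found in at least 1 window of 2 of the 5 genes and 5 of the 17, and of 9.04% of all 27025 genes with a window. Some genes have several windows, and Dnaja1 held the pair in 1 of its 3. The half-site AGAACA of the hormone response element, searched on both strands, was found in 1 of the 5 genes (Ncoa1) and 1 of the 17, beside 21.3% of all genes. Nr3c1, which was not searched, had the same bulk log2 change as Nr3c2, -0.23, but did not pass the FDR. Ptges3, Dnaja1 and Hspa4 were also lower in CUS mice without overlap and did not pass. Lists treated below were searched too. The pair was in 1 of 12 coregulators, 1 of 7 steroid metabolism genes and 0 of 5 other receptors, counting genes with a window. The half-site was in 3, 3 and 0 of them. The 1 coregulator with the pair was Med14, which also passed the FDR lower in bulk, held 1 half-site and is not shown. Among the 5 chaperones with the pair, Hspa1a and Hspa1b are near-identical, and Stub1 had a positive bulk log2 change, 0.16. Windows with the GAA pair are given for Nr3c2 and Hsph1, which passed the FDR in bulk, and for Fkbp4. They run 5′ to 3′ on the gene's strand, with the pair in capitals.
Nr3c2, chr8:76902080-76902379, plus strand, pair starting 151 bases before the start: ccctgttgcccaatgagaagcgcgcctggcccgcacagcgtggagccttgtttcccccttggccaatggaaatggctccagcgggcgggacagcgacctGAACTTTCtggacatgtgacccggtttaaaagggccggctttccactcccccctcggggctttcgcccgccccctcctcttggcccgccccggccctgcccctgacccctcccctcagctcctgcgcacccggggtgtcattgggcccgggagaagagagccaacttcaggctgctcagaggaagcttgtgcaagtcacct
Fkbp4, chr6:128438607-128438906, minus strand, pair starting 151 bases before the start: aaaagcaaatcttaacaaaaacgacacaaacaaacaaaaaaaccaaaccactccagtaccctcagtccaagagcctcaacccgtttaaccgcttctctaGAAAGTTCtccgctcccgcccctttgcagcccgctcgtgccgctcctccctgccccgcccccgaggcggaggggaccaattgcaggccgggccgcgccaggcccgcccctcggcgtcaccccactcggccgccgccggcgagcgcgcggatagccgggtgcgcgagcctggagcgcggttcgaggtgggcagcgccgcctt
Hsph1, chr5:149636287-149636586, minus strand, pair starting at base 42 of the transcript: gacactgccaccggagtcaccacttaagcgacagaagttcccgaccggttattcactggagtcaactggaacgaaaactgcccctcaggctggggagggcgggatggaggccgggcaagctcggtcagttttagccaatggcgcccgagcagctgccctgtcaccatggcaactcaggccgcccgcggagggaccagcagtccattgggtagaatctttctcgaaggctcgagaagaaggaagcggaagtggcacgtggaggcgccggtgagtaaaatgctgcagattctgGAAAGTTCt
The RefSeq starts of the Nr3c2, Fkbp5 and Hsd11b1 windows lie inside the gene spans of the authors' annotation, downstream of the outermost start, so other starts of these genes were not searched. The matches describe these letters only, and binding of a factor was not measured. The Fkbp5 window, at chr17:28486100-28486399 on the minus strand, held neither motif.

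Neither coactivator passed a test. In bulk Ncoa1 stood at 202, 204, 216 and 207 CPM in control and 186, 202, 193, 186 and 197 CPM in CUS mice. The groups overlapped at a single CUS mouse, and the log2 change was -0.10 with a standard error of 0.05 and an adjusted p of 0.255 by edgeR. Ncoa2 stood at 305 to 355 CPM in control and 296 to 330 CPM in CUS mice, with a log2 change of -0.06 and a standard error of 0.06.

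In the nuclei Ncoa1 stood at 213, 226, 207 and 224 CPM in control and 189, 217, 193 and 200 CPM in CUS mice, with 3 of 4 CUS mice below every control. Its log2 change was -0.12 with a standard error of 0.08 and an adjusted p of 0.623 by edgeR, and it was negative in 20 of 26 classes. Ncoa2 was split, negative in 12 classes and positive in 14, with a log2 change of 0.0037 over all nuclei. By level, Ncoa1 was highest in Astrocyte-like nuclei (383 ± 62.8), Inh_Sst-like (355 ± 61.5) and Inh_Ndnf-like nuclei (355 ± 98.8) and lowest in Ex_L5/6-like nuclei (145 ± 24.9). Ncoa2 covered a 1.98-fold range, from 205 ± 31.6 in cluster 23 to 103 ± 32.3 in Ex_Tshz2-like nuclei.

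Of 17 other coregulators of steroid receptors, all tested in bulk, 1 passed the FDR of 0.05, lower, beside 3.29% of all genes in either direction and 2.13% lower, and 4 of 17 had an unadjusted p under 0.05, beside 21.5%. This was Med14, a Mediator subunit that contacts nuclear receptors, which fell by 0.28 on the log2 scale with an adjusted p of 0.0226 by edgeR. It stood at 99.6, 116, 105 and 108 CPM in control and 86.3, 89.3, 93.1, 88.0 and 83.9 CPM in CUS mice, without overlap, and did not pass without control replicate 2 or CUS replicate 1, 4 or 5. In all nuclei Med14 was below the abundance filter, at 31.8 to 40.9 CPM in control and 32.5 to 43.5 CPM in CUS mice, overlapping. The corepressor Nrip1 and the chromatin remodeler subunit Arid1a had log2 changes of -0.23 and -0.17 and adjusted p of 0.162 and 0.177. Of the 4 with an unadjusted p under 0.05, 3 were negative, and the other was the corepressor-associated deacetylase gene Hdac3, named after its values were seen, with a log2 change of 0.13, an adjusted p of 0.155 and no overlap between the groups. In all nuclei 11 of the 17 were tested and 0 passed, with 2 at an unadjusted p under 0.05, beside 7.90% of all genes.

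Hsd11b1 was scarce in bulk, at 46 to 73 reads per mouse, which left 1.74, 1.72, 2.02 and 1.77 CPM in control and 2.38, 2.05, 2.46, 2.02 and 1.93 CPM in CUS mice. It was the only 1 of the 9 genes with a positive bulk log2 change, 0.26 with a standard error of 0.14 and an adjusted p of 0.301 by edgeR, and the groups overlapped at control replicate 3. Among the 26 classes of nuclei its level was high in few. Astrocyte-like nuclei had 62.0 ± 27.6 CPM, followed after a step larger than the SD by cluster 26 (24.7 ± 23), Ex_L5/6-like (20 ± 7.52) and, after another such step, Ex_L5-like nuclei (12.0 ± 7.69). Ex_L2/3_Enpp2-like nuclei had 0.823 ± 0.909, on 11 UMIs in 8 mice. Outside the 26 classes, 2 small clusters, picked after their values were seen, had higher means than Astrocyte-like nuclei. These were cluster 32 (Fyb2), 77 nuclei, with 94.7 ± 66.7 CPM on 20 UMIs, and cluster 36 (Mog), 30 nuclei, with 141 ± 374 CPM on 3 UMIs.

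Of 11 other genes of steroid metabolism and transport, 8 were abundant enough to test in bulk and 0 passed the FDR of 0.05 by edgeR, beside 3.29% of all genes, with 0 at an unadjusted p under 0.05, beside 21.5%. The largest log2 changes were 0.52 for Tspo, a mitochondrial cholesterol-binding protein, 0.40 for Cyp11a1, the side-chain cleavage enzyme that starts steroid synthesis, and 0.25 for Srd5a3, a member of the steroid reductase family, with adjusted p of 0.255, 0.390 and 0.275. Hsd11b2, the enzyme that shields MR from corticosterone in kidney and was named after its values were seen, had 1 read over all 9 mice. None of the 11 was tested in the nuclei. The last list held 6 other receptors of the steroid receptor family, of which Esrra and Esrrg are orphan receptors. All 6 were tested in bulk, and 1 passed and was higher in CUS mice, beside 1.16% of all genes called higher. An unadjusted p under 0.05 was reached by 2 of the 6, both with a positive log2 change, beside 21.5% of all genes. Pgr, the progesterone receptor, rose by 0.28 on the log2 scale with an adjusted p of 0.0377 by edgeR, from 34.0, 30.1, 29.9 and 28.4 CPM in control to 36.0, 37.6, 38.6, 39.0 and 34.5 CPM in CUS mice. The groups did not overlap, as for 4.06% of all genes in the higher direction, but in all nuclei its log2 change was -0.10 with a standard error of 0.09. The orphan receptor Esrrg had a log2 change of -0.15 with an adjusted p of 0.346 by edgeR. Pgr passed only with all mice or without control replicate 1 or control replicate 3.

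The genes most alike to each of the 9 in their pattern over the 26 class means were taken by Pearson's r of log2 levels among 8062 other genes (8063 for Hsd11b1) with a mean of at least 20 CPM. Nr3c1 was most like Pex2, Hmgb1 and Pik3r1, with r of 0.79, 0.78 and 0.78, and Nr3c2 most like Prr14, Gm10649 and Nebl, with r of 0.76, 0.72 and 0.67. Hsp90aa1 came closest to Hspa8 (0.86) and Hsp90ab1 to Rpl4 (0.94), Eif1 (0.86) and Ncl (0.85). Fkbp5 was most like Csmd3 (0.75), Fkbp4 Psmb1 (0.88), Ncoa1 Ivd (0.75), Ncoa2 Golim4 (0.76) and Hsd11b1 Ccdc171 (0.66). The points of these correlations share libraries and depth, so no test was made.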

How the data were processed

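The bulk files give whole-number counts of reads per gene and the sNucDrop-seq files whole-number counts of UMIs per gene and barcode, 5000 barcodes per mouse, both without normalization. The authors made these counts before deposit from reads mapped uniquely to mm10, with STAR and their own counting programs for bulk. Whether intron reads were counted in bulk is not given in the sources used here. Groups and replicate numbers came from the sample labels, and each mouse is 1 sample. The study's methods fitted a sequencing batch for the nuclei, which could not be done here because the labels do not give it.

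For bulk, edgeR 4.0.16 in R 4.3.3 was applied to the counts (filterByExpr, TMM, quasi-likelihood test, Benjamini-Hochberg over 18394 genes, FDR 0.05). Standard errors were taken from the log2 change and its F statistic. CPM used the TMM-scaled totals of the genes tested, stretched to all counts by the same constant for every mouse. Of 40000 barcodes, 31611 had 600 to 5000 genes, 31486 of them had under 5% mitochondrial UMIs, and 26937 were kept after 4549 doublets (14.4%) were removed with a rebuilt Scrublet score (expected rate 0.1, at most 0.2 kept). Seurat 5.3.0 clustered all nuclei (2000 genes, 50 components, 20 neighbors, resolution 1). A cluster of at least 50 nuclei took a marker-based name when at least 3 markers were 1.5-fold enriched in 5% of its nuclei and 2 were among its 20 leading genes, the last of 4 forms of this rule tried on the clusters without regard to condition. UMIs were summed per mouse over all nuclei or a class of over 200 nuclei, and genes whose sum exceeded 10% of the number of nuclei were tested as above at an FDR of 0.2. Layer 2/3 nuclei were set against other nuclei with 0.5 UMI added to each sum, by exact permutation over mice. Scripts were tested on simulated counts.

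Alternatives were edgeR's likelihood ratio test, DESeq2 1.42.0, no TMM factors, no filter, a replicate block, each mouse left out, and, for nuclei, no doublet filter, at least 1000 genes per nucleus, and clustering at 0.6 and 1.5. The 9 genes, the lists and the tests were chosen with earlier results of these data known. All 9 genes are named, and of each list those past the FDR and, up to 3, those with the largest bulk change. Others were named after their values were seen, and 1 gene that the rule names is not reported here. Counts of replicates of different mice differed by more than sampling noise (chi-square per degree of freedom 3.03 to 26.7 in bulk, 5.91 to 41.2 in nuclei).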

Additional observations from a re-analysis of the deposited data

Results flagged for a closer look

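Of 54 groups of 4 or 5 mice in which the 9 genes were checked for a single mouse far from the rest, 3 were flagged, and chance alone flags about 1 group in 20. Fkbp4 in bulk mPFC was 16.0 CPM in control replicate 1, on 425 reads, against 19.8 to 20.5 CPM in the other control mice. Hsp90aa1 over all nuclei was 177 CPM in control replicate 4 against 211 to 213 CPM in the other control mice. Ncoa2 over all nuclei was 159.6 CPM in CUS replicate 2 against 140.2 to 142 CPM in the other CUS mice. None of these 3 genes passed its test with all mice included.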

How the results depend on the processing

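Of 402 values of the 9 genes under alternatives, 367 kept their direction and side of the threshold, 21 changed sign, 7 lost and 7 gained a call. Genes of the 9 called in bulk numbered 1, and 2 with the likelihood ratio test, 2 with DESeq2 and 2 without TMM factors, with Nr3c1 added each time, and 0 to 2 with a mouse left out. Called genes of the 4 lists in bulk numbered 3, and 6, 7 and 5 under the same settings, 5 without a filter, and 0 to 9 with a mouse left out. Over all genes the bulk calls numbered 606, and 1330, 1413 and 822 under those settings and 133 to 1508 with a mouse left out. In all nuclei 0 of the 9 were called, and 0 to 2 with a mouse left out, while list genes called numbered 0, 2 without a filter and 0 to 4 with a mouse left out. In layer 2/3 nuclei and over all classes the range was 0 to 1. Calls over all genes in all nuclei numbered 1, 18 with the likelihood ratio test, 26 with DESeq2 and 314 without a filter, and in layer 2/3 nuclei 59, 166, 49 and 111, and with a mouse left out 0 to 787 and 17 to 731, the highest of each without CUS replicate 2. The cause of these differences was not tested.

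With a mouse left out, log2 changes that crossed 0 were those of Fkbp5 in bulk (-0.25 to 0.22), Hsp90ab1 (-0.054 to 0.17) and Ncoa2 (-0.044 to 0.072) in all nuclei and Nr3c2 in layer 2/3 nuclei (-0.16 to 0.055). Relative to other nuclei, layer 2/3 differences that did so were those of Fkbp4 (-0.098 to 0.035), Ncoa1 (-0.064 to 0.016) and Ncoa2 (-0.17 to 0.027). Ncoa2 in all nuclei was -0.0085 without a filter, and Fkbp4 in layer 2/3 relative to other nuclei was 0.053 with at least 1000 genes per nucleus. None of these passed its test with all mice and the settings of the report.

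Over all genes, replicate numbers did not clearly pair the mice. Same-numbered control and CUS mice correlated at 0.0335 to 0.199 in bulk, 2 of 4 pairs over 0.1, and at -0.467 to 0.400 in nuclei, 2 of 4 over 0.1, and 2 of 4 bulk controls and 1 of 4 nuclei controls correlated best with their own number. With the replicate number as a block, which also leaves out CUS replicate 5 in bulk because it has no partner, 0 of the 9 genes were called in bulk (Nr3c2 adjusted p 0.126 by edgeR), 1 gene of the lists (Hsph1) and 233 of all genes, and no other call of the 9 genes changed. Without CUS replicate 5 and with no block, the adjusted p of Nr3c2 was 0.107 by edgeR. Single genes could still follow the number. Bulk Fkbp5 rose with it in both groups, apart from CUS replicates 1 and 2, and the cause was not tested.

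Depth limited Fkbp5, Fkbp4 and Hsd11b1 in the nuclei, which were below the abundance filter over all nuclei and passed it in 6, 8 and 1 of the 26 classes.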

Other observations

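Fkbp5 did not separate the groups in bulk mPFC, and its level over the 9 mice was set beside 13 other genes that glucocorticoids induce. The list came from textbook knowledge and was drawn up after the values had been seen, so the correlations below are a description with no test. Across the 9 bulk mice 13 of 13 had a positive Pearson's r with Fkbp5, with a median of 0.631, beside 51.3% positive and a median of 0.016 over 18313 other genes. Ddit4, an inhibitor of mTOR signaling, had r = 0.977 and Spearman's rho = 1, and 0 of the 18313 genes had a higher r. It ranged from 2.34 to 6.84 CPM over the control mice, in the same order as Fkbp5 from 26.3 to 65.7 CPM. Over the CUS mice it ranged from 3.31 to 6.95 CPM, again in the same order. For both genes this order followed the replicate number in each group, apart from CUS replicates 1 and 2, and the cause was not tested.

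The order of the other genes was less alike. Tsc22d3, which encodes the leucine zipper protein GILZ, had r = 0.910 and rho = 0.833, Sgk1, a kinase of ion channel control, r = 0.874 and rho = 0.75, and Nfkbia, an inhibitor of NF-kB, r = 0.854 and rho = 0.733, an r that 0.431% of all genes reached. Without the 2 mice farthest from the median of Fkbp5, control replicate 4 and CUS replicate 5, r was 0.942 for Ddit4, 0.895 for Tsc22d3, 0.737 for Sgk1 and 0.594 for Nfkbia. Of the 13 genes, Errfi1 and Cdkn1a then had a negative r, at -0.112 and -0.0504, and the others stayed positive. In the nuclei of the other 8 mice, with CPM that were not scaled by TMM, 11 of the 13 had a positive r, with a median of 0.299, beside 57.5% positive and a median of 0.098 over 5048 genes. There Ddit4 had r = 0.489, which 1050 of those genes exceeded, and Sgk1 r = -0.110.

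Nr3c2 was also high in cluster 29, 138 nuclei led by Prox1, Glis3 and Chst9, with 627 ± 186 CPM (SD over 8 mice), a cluster chosen after its values were seen. It was below 200 nuclei and was not compared between groups. Of its nuclei, 57 came from control replicate 2.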
